A study of Mus musculus with 8 samples.

Results

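Mast cells are tissue-resident granulocytes that store serine proteases, carboxypeptidase and histamine in their granules and release them when IgE on their surface is cross-linked. In the mouse, the granules of connective tissue mast cells hold the chymases Mcpt4 and Cma1, the tryptases Tpsb2 and Tpsab1 and the carboxypeptidase Cpa3, while those of mucosal mast cells hold the chymases Mcpt1 and Mcpt2. Hdc makes histamine from histidine, and Fcer1a and Ms4a2 encode the alpha and beta subunits of the IgE receptor. These 10 genes were described in mammary tumour RNA from 4 FGFR1 KO and 4 WT samples. They were picked as mast cell genes after Hdc, Mcpt4 and Cma1 had been seen to be lower on the FGFR1 KO arrays, so differences between genotypes in these genes are given as a description and not as a test. Probes were found by their RefSeq accession, and 9 of the 10 genes had one, out of 21368 genes that could be named. The gene table lists Tpsab1 as a transcribed pseudogene and pairs no probe's accession with it, and it is not analysed here. The 9 genes had 10 probes, 1 each and 2 for Tpsb2.

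The FGFR1 KO tumours came from K19-tva/fgfr1loxP/loxP mice, which carry loxP sites in both copies of Fgfr1, and the WT tumours from control K19-tva mice, all on the FVB background. The K19-tva transgene, which all 8 samples share, is named for the keratin 19 promoter and the avian virus receptor tva. How Fgfr1 was recombined, in which cells, and the ages of the mice are not given in the sources used here, nor is it said that the tumours came from separate animals. Each sample was hybridised on 1 2-colour array against a human reference RNA, and a value is the log2 ratio of red (tumour) to green (reference). On these bulk samples, fewer mast cells, less RNA per mast cell and a different mix of other cells cannot be told apart.

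Fgfr1 itself had 3 probes, on all of which the groups overlapped. Its differences, FGFR1 KO minus WT, were 0.00 ± 0.12, -0.49 ± 0.66 and -0.10 ± 0.41 (SE; limma, adjusted p = 1, 0.841 and 0.951). On the second of these, FGFR1 KO 1 to 4 read 0.57, 0.18, 1.76 and -1.99 and WT 1 to 4 read 0.49, 0.56, 0.53 and 0.91, so that FGFR1 KO 4 alone was far below. The sources used here do not place these probes inside or outside the floxed exons, so they do not check the labels, and FGFR1 KO below means the samples labelled so.

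The tumour channel passed Agilent's background criterion at 68.9% to 83.9% of spots per FGFR1 KO array, and at 43.9% to 69.2% per WT array. All FGFR1 KO arrays occupied row 1 of the slide and all WT arrays row 2, and these placements cannot be told apart from genotype. A rectangle of the array, which starts at row 97 and column 83 and reaches the last column, was bright on each WT array. Within it, the 96 negative-control spots averaged 0.979 to 6.74 red intensity units above local background on the FGFR1 KO arrays and 51.0 to 81.2 units on the WT arrays. The 212 negative controls outside averaged 1.61 to 7.82 units on the FGFR1 KO arrays and 3.31 to 6.73 units on the WT arrays. Across probes, WT 2 correlated with the other arrays at 0.379 on average, while the remaining 7 arrays did so at 0.598 to 0.713.

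The promoters shown are those of Mcpt4, Cma1 and Hdc, the genes that led to the choice of members, and that of Mcpt1, another chymase gene, to compare with Mcpt4. Each runs from 250 bases before to 50 after the gene's start, 5′ to 3′ on the gene's strand, from RefSeq with build GRCm38.p6. Capitals mark GATAA or its reverse complement TTATC, the core bound by GATA factors, among which Gata2 drives mast cell genes. Mcpt4 lies at chr14:56062261-56062560 (minus strand), Mcpt1 at chr14:56017714-56018013 (plus strand), Cma1 at chr14:55944626-55944925 (minus strand) and Hdc at chr2:126618629-126618928 (minus strand).
Mcpt4: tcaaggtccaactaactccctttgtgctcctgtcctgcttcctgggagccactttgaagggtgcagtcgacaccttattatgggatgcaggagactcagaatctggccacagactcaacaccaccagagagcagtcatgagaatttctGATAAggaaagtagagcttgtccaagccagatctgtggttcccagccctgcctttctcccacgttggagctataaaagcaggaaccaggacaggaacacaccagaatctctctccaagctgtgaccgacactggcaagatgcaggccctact
Mcpt1: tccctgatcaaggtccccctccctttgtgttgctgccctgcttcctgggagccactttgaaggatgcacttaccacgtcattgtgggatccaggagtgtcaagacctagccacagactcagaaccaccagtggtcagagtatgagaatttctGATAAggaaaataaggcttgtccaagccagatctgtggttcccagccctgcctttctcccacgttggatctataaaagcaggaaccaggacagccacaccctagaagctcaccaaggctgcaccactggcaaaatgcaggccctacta
Cma1: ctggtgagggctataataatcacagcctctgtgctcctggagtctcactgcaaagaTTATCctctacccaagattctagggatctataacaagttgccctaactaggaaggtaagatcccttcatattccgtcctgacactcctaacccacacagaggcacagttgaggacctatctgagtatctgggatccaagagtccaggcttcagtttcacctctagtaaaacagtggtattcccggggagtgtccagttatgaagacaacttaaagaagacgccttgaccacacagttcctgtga
Hdc: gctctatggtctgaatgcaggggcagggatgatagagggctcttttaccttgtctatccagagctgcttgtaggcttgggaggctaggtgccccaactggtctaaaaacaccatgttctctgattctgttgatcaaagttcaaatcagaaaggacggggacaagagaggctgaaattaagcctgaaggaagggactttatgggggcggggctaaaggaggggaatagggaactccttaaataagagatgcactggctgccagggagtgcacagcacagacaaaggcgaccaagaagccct

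In an alignment with no penalty for gaps at the ends, the Mcpt4 and Mcpt1 windows matched at 249 of 291 aligned bases, or 85.6%. Bases opposite a gap were not counted. Both windows hold the GATAA core in the same local sequence. The Cma1 window holds it on the opposite strand, and the Hdc window does not hold these letters. Of the 7 members with a promoter in the table, 6 held GATAA on either strand, and 25.4% of all 32851 promoters of 300 bases did. CACGTG, an E-box read by Mitf, was in 0 of the 7 and in 7.15% of all promoters, and CATGTG, another E-box, was in 1 of the 7, that of Fcer1a, and in 14.2%. These matches are a description of the letters and not of bound sites.

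The connective tissue chymases were lower on the FGFR1 KO arrays. Mcpt4, a chymase of connective tissue mast cells, read -0.50, 0.85, 0.31 and -0.37 on FGFR1 KO 1 to 4 and 3.09, 2.36, 1.41 and 1.81 on WT 1 to 4. Every FGFR1 KO value was below every WT value, with WT 1 the highest of the 8. The means were 0.07 ± 0.63 in FGFR1 KO and 2.17 ± 0.73 in WT (SD, n = 4 each), a difference of -2.10, or 4.28-fold lower in FGFR1 KO. Before any normalization, the red signal of this spot was 181, 138, 160.5 and 120 intensity units on FGFR1 KO 1 to 4 and 1223, 619.5, 370 and 507 units on WT 1 to 4. These red values separated the groups, while green was 213 to 330 units on the FGFR1 KO arrays and 168 to 280 units on the WT arrays. The spot lies inside the area that was bright on the WT arrays. The spots within 8 rows and columns of it had a median red of 282.75, 117, 186.5 and 240 units on FGFR1 KO 1 to 4. On WT 1 to 4 that median was 344, 320.25, 274 and 413 units, and its part in the red of Mcpt4 was not tested.

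Cma1, a chymase-family protease whose mouse form cleaves like an elastase, read 0.12, -0.59, 0.11 and -0.41 on FGFR1 KO 1 to 4 and 1.82, 0.65, 0.84 and 0.66 on WT 1 to 4. The groups did not overlap, and WT 1 again stood above the other WT arrays. The means were -0.19 ± 0.37 in FGFR1 KO and 0.99 ± 0.56 in WT (SD, n = 4 each), a difference of -1.19, or 2.27-fold lower in FGFR1 KO, and -0.91 without WT 1. Red exceeded background clearly on 3 arrays of each genotype. The red signals were 178.5, 70, 148 and 157.5 units on FGFR1 KO 1 to 4 and 590.5, 193, 248.5 and 170.5 units on WT 1 to 4. On red alone the groups therefore overlapped, since WT 4 was below FGFR1 KO 1.

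Hdc, the only enzyme that makes histamine, read 0.47, 0.04, -0.20 and -0.09 on FGFR1 KO 1 to 4 and 1.47, 2.05, 1.07 and 1.30 on WT 1 to 4. The groups did not overlap, and here WT 2 was the highest array and WT 1 the next. The means were 0.06 ± 0.29 in FGFR1 KO and 1.47 ± 0.42 in WT (SD, n = 4 each), a difference of -1.42, or 2.67-fold lower in FGFR1 KO. The red signals were 215, 87, 91 and 136 units on FGFR1 KO 1 to 4 and 599, 484, 326.5 and 354 units on WT 1 to 4.

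The probes of the mucosal chymases had differences above 0, but that of Mcpt1 did not keep its sign in every alternative. Which transcripts these probes bind was not tested. Mcpt1 read -0.37, -0.35, -0.09 and -0.64 on FGFR1 KO 1 to 4 and -1.03, -0.84, 0.05 and -0.73 on WT 1 to 4. The groups overlapped, with WT 3 the highest of the 8 arrays and WT 1 the lowest. The means were -0.36 ± 0.22 in FGFR1 KO and -0.63 ± 0.48 in WT (SD, n = 4 each), a difference of 0.27. Red exceeded background clearly on 4 FGFR1 KO arrays but on 1 WT array. Mcpt1 thus passed the filter on dim probes through the group where it was higher, and nothing is read from its difference. The difference was 0.14 without WT 1, 0.50 without WT 3, 0.50 with Agilent's log ratio and 0.16 with the bright area left out, and it turned to -0.03 without WT 1 and WT 2.

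Mcpt2 read 0.42, 0.83, 0.65 and 0.31 on FGFR1 KO 1 to 4 and 0.31, 0.25, 0.28 and -0.01 on WT 1 to 4. The lowest FGFR1 KO value and the highest WT value were both 0.31, and the groups met there without overlapping. The means were 0.55 ± 0.23 in FGFR1 KO and 0.21 ± 0.15 in WT (SD, n = 4 each), a difference of 0.35. Before normalization, this spot had a mean of 1200 red and 1590 green units on the FGFR1 KO arrays and 737 red and 1140 green units on the WT arrays.

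The tryptase Tpsb2 was near 0 in both groups. Its probe outside the bright area, A_55_P2089143, read 0.66, 0.20, 0.12 and -0.02 on FGFR1 KO 1 to 4 and 1.13, 0.04, 0.39 and 0.25 on WT 1 to 4. Its brighter probe inside, A_55_P2127243, read 0.13, -0.12, 0.03 and 0.41 on FGFR1 KO 1 to 4 and 0.64, -0.22, 0.36 and 0.13 on WT 1 to 4. On both probes the groups overlapped and WT 1 was the highest array. The differences were -0.21 and -0.12, and the second ranged from -0.26 without WT 2 to 0.02 without WT 1 with 1 array left out, and turned to 0.12 with Agilent's own log ratio and to 0.46 with red signal alone. Before normalization, this probe had a mean of 2590 red and 4420 green units on the FGFR1 KO arrays and 1860 red and 3040 green units on the WT arrays.

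The remaining 3 members, Cpa3, Ms4a2 and Fcer1a, were not well above background in red by Agilent's criterion on any of the 8 arrays, and no fold is given for them. The Cpa3 spot, for the carboxypeptidase of mast cell granules, had red signals of 63.5, 76, 80.5 and 94 units on FGFR1 KO 1 to 4 and 150, 76, 61 and 67 units on WT 1 to 4. Ms4a2, the IgE receptor's beta subunit, had 52, 56.5, 59 and 65.5 units on FGFR1 KO 1 to 4 and 247, 61, 166 and 55 units on WT 1 to 4. WT 1 was the highest array for both, joined by WT 3 at the Ms4a2 spot, which lies inside the bright area. Local background on these arrays was 47 units at Cpa3 on WT 1, and 55 and 51 units at Ms4a2 on WT 1 and WT 3. Fcer1a, the IgE-binding alpha subunit, stayed between 50 and 59.5 units on the FGFR1 KO arrays and between 53 and 69 units on the WT arrays.

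**Figure D1:**
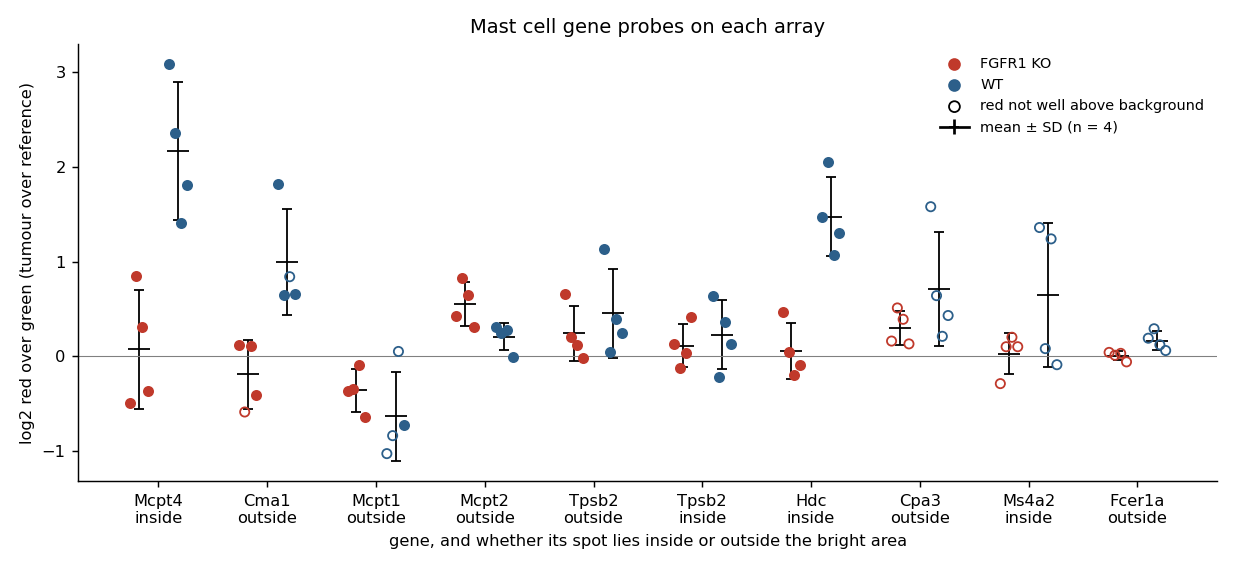
Log2 red over green of each member probe on each array, with FGFR1 KO (red) left of WT (blue), bars for the mean ± SD of 4 arrays and open points where red was not well above background. Mcpt4, Hdc and Cma1 separate by genotype, with differences of -2.10, -1.42 and -1.19 in FGFR1 KO minus WT, while Mcpt1 and both Tpsb2 probes overlap.

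Over all 39795 probes tested, limma called 4 lower in FGFR1 KO (0.0101%) and 0 higher (0%) at an adjusted p under 0.05, while 4.85% were lower and 3.63% higher at an unadjusted p under 0.05. All 4 were unnamed probes inside the bright area. All 4 FGFR1 KO values lay below all WT values for Mcpt4, Cma1 and Hdc, and for 2.71% of all probes tested. All 4 FGFR1 KO values lay above for Mcpt2, and for 2.39% of all probes tested. The median difference over the 6 member genes that passed the filter on dim probes was -0.65, and 0.02 over all probes tested. Since these genes were picked on the same contrast, nothing is read from those counts.

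Position on the array divided the 3 lower genes. Mcpt4 (row 186, column 150) and Hdc (row 189, in the last columns) lay inside the bright area, as did Ms4a2 (row 316) and 1 Tpsb2 probe (row 251, column 149). Cma1 (row 340, column 149) lay 4 rows beyond its edge. The other 5 member probes lay farther outside it. Among all probes tested, the FGFR1 KO values lay below all WT values at 6.09% of the 12752 probes inside and at 1.12% of the 27043 outside, and the median difference was -0.10 inside and 0.06 outside.

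**Figure D2:**
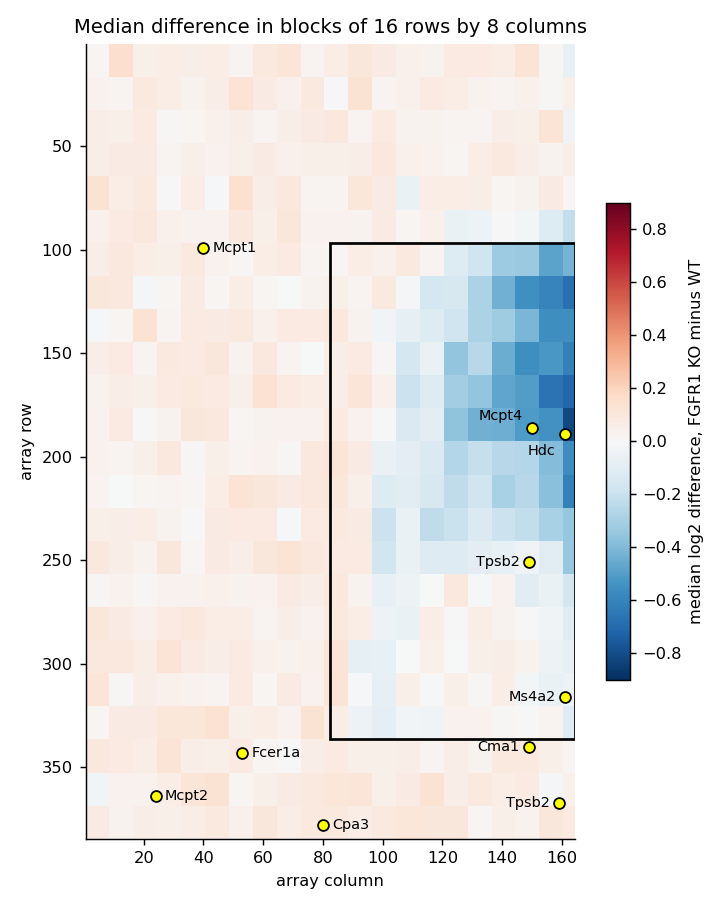
Median log2 difference, FGFR1 KO minus WT, of the probes tested in blocks of 16 array rows by 8 columns, with the bright area outlined and the 10 member spots marked. Mcpt4 and Hdc sit in the blue right-hand part, where whole blocks read lower in FGFR1 KO, and Cma1 sits just below the outline in blocks near 0.

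The spots around each member, within 8 rows and 8 columns of it, were read on the same arrays. Around Hdc, the median ratio of 196 spots was -0.05, -0.04, -0.05 and -0.06 on FGFR1 KO 1 to 4 and 0.72, 0.82, 0.64 and 0.99 on WT 1 to 4. The neighbours of Hdc thus differed by -0.84 between genotypes, in the same direction as Hdc itself. Of its tested neighbours with a value on every array, 48.2% had all FGFR1 KO values below all WT values. The median red signal of the neighbours was 430.25, 289, 310.25 and 368.5 units on WT 1 to 4, beside 599, 484, 326.5 and 354 units for Hdc itself. Hdc was thus well above its neighbours on WT 1 and WT 2 and close to them on WT 3 and WT 4. With the neighbours' median subtracted on each array, Hdc read 0.52, 0.09, -0.15 and -0.03 on FGFR1 KO 1 to 4 and 0.75, 1.23, 0.44 and 0.30 on WT 1 to 4. Its difference was then -0.57 and the groups overlapped.

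Around Mcpt4, the median ratio of 274 spots was -0.08, -0.04, -0.04 and -0.02 on FGFR1 KO 1 to 4 and 0.34, 0.72, 0.29 and 0.83 on WT 1 to 4. These neighbours differed by -0.59. Of the tested neighbours with all values, 25.3% had the groups separated in the same direction as Mcpt4. With the neighbours subtracted, its difference was -1.51 and the FGFR1 KO values, from -0.43 to 0.89, stayed below the WT values, from 0.99 to 2.76.

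Around Cma1, the median ratio of 278 spots was between 0.02 and 0.07 on the FGFR1 KO arrays and between -0.02 and 0.14 on the WT arrays, a difference of 0.02. Of the tested neighbours with all values, 0.599% had the groups separated in the same direction as Cma1. Its difference with the neighbours subtracted was -1.21, as large as before. With each spot's background taken instead as percentile 10 of the signals around it, the differences were -2.08 for Mcpt4, -1.24 for Hdc and -1.19 for Cma1.

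Of the 3 lower genes, Cma1 is the one whose spot lies outside the bright area, though at its border, and some of its neighbours lie inside. The part of the bright area in the Mcpt4 and Hdc differences was not tested beyond these values. With the bright area left out, the 4 member genes with a probe elsewhere had a median difference of -0.05, with Cma1 at -1.29, Tpsb2 at -0.26, Mcpt1 at 0.16 and Mcpt2 at 0.31.

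**Figure D3:**
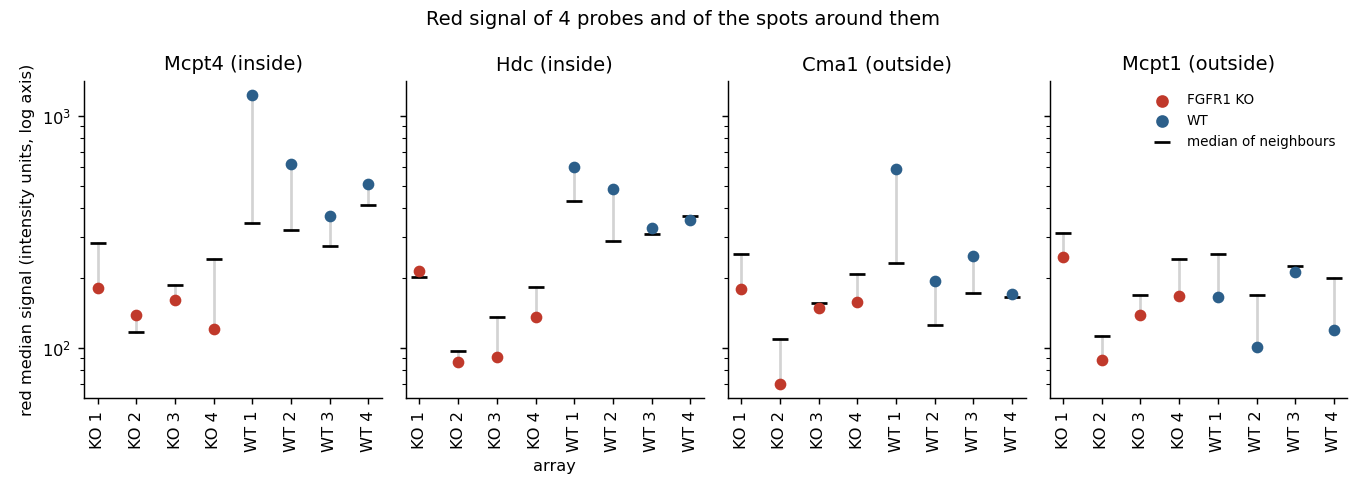
Red median signal of the Mcpt4, Hdc, Cma1 and Mcpt1 spots on each array (points, log axis, intensity units), with FGFR1 KO arrays left of WT arrays, and the median red signal of the spots within 8 rows and columns (black dashes). Around Hdc the dashes lie at 96.75 to 200.75 units on the FGFR1 KO arrays and 289 to 430.25 units on the WT arrays, and the Hdc points sit well above them on WT 1 and WT 2 and close to them on WT 3 and WT 4, while around Cma1 the dashes of the groups overlap.

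Other genes that mast cells use were then read, each standing by its brightest probe. Over 4 such lists, 33 genes were measured and limma called 0 of them in either direction, beside 0.0101% of all probes lower and 0% higher. At an unadjusted p under 0.05, 1 was lower (Hnmt) and 1 higher (Tpsg1), beside 4.85% and 3.63% of all probes tested. Identity and granule genes had 13 of 16 measured, 6 below 0 and 7 above, with a median difference of 0.02. Kit, the stem cell factor receptor on which mast cells depend and which luminal mammary cells also express, averaged 3.37 ± 0.73 in FGFR1 KO and 2.75 ± 1.62 in WT tumours (SD, n = 4 each), a difference of 0.62 ± 0.74 (SE). Its values were 3.20, 3.32, 4.37 and 2.60 on FGFR1 KO 1 to 4 and 2.76, 0.47, 3.75 and 4.03 on WT 1 to 4, so that WT 2 alone was low.

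The regulators Gata2 and Mitf differed by 0.45 ± 0.56 and 0.02 ± 0.19 (SE), and Srgn, the proteoglycan core to which granule proteases bind, by -0.39 ± 0.41 (SE). Tpsg1, a membrane-bound tryptase, read 0.11 to 0.30 on the FGFR1 KO arrays and -0.28 to 0.02 on the WT arrays, a difference of 0.33 ± 0.13 (SE; limma, adjusted p = 0.543). Mrgprb1, a member of the mast cell receptor cluster, differed by 0.21 ± 0.13 and Tph1, the enzyme of serotonin synthesis, by 0.69 ± 0.49 (SE), with FGFR1 KO 1 at 2.49 for Tph1 and the other 7 arrays at or below 1.02. Tpsg1 and Tph1 were well above background on 4 FGFR1 KO arrays and 1 WT array each, so both passed the filter on dim probes through the group where they were higher, and nothing is read from their differences. Slc18a2, Mrgprb2 and Rgs13 did not pass the filter on dim probes.

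Genes of IgE receptor signalling and lipid mediators had 11 of 12 measured, 9 below 0 and 2 above, with a median of -0.22. Of all probes tested, 47.5% were below 0. Syk, the kinase downstream of the receptor, differed by -0.22 ± 0.15, Ltc4s, the leukotriene C4 synthase gene, by -0.25 ± 0.18 and Lat, a signalling adaptor, by -0.21 ± 0.15 (SE). These values were within 2 SE of 0, and the probes of Syk and Ltc4s lay inside the bright area.

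Histamine receptors and breakdown enzymes had 5 of 6 measured, 3 below 0 and 2 above, with a median of -0.06. Hnmt, which inactivates histamine by methylation, read -0.19, 0.05, -0.22 and 0.49 on FGFR1 KO 1 to 4 and 0.68, 1.09, 0.40 and 0.67 on WT 1 to 4. It differed by -0.68 ± 0.21 (SE; limma, adjusted p = 0.454), with FGFR1 KO 4 above WT 3, and its probe too lay inside the bright area. The diamine oxidase gene Aoc1, which likewise passed the filter through the FGFR1 KO arrays, differed by 0.24 ± 0.25 and the histamine receptor gene Hrh1 by -0.08 ± 0.16 (SE). Of 5 mast cell growth factor genes, 4 were measured, with 3 below 0. Kitl, which encodes stem cell factor, differed by 0.51 ± 0.38 (SE), with FGFR1 KO 1 at 0.21 and the other 7 arrays from -1.70 to -0.75, Il3 by -0.16 ± 0.16 and Il9 by -0.11 ± 0.20 (SE).

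**Figure D4:**
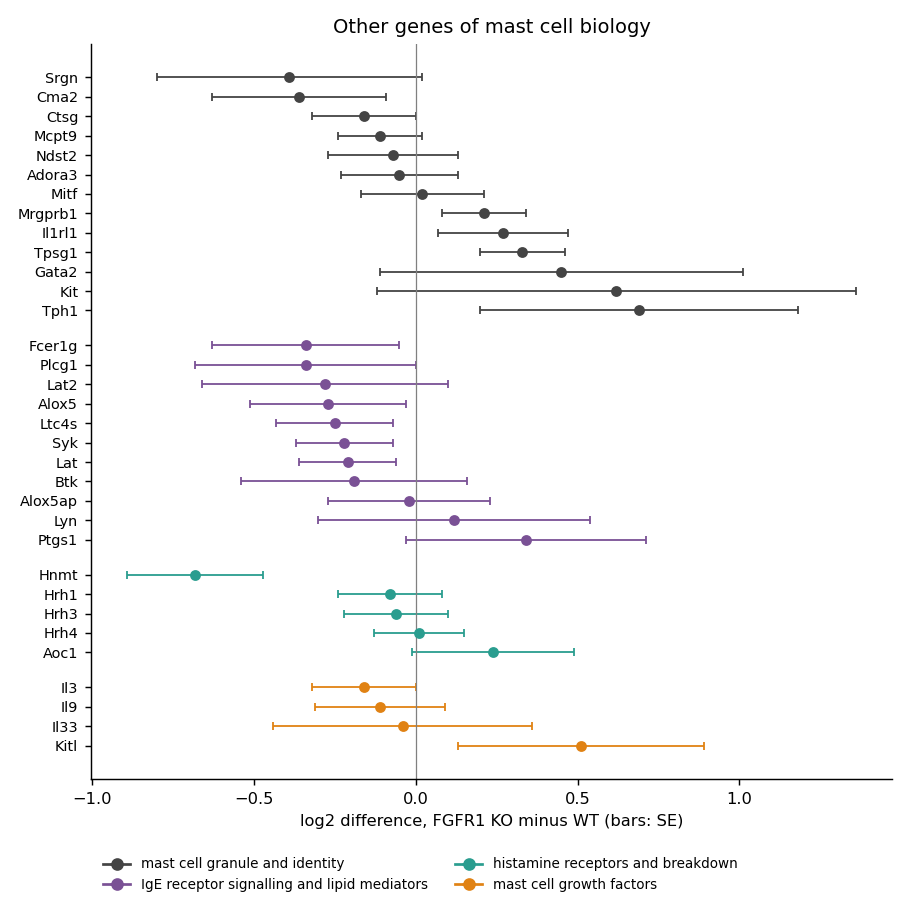
Log2 difference, FGFR1 KO minus WT, of the 33 measured genes of 4 lists on mast cell biology, with bars for the SE from limma over 8 arrays. The differences run from -0.68 for Hnmt to 0.69 for Tph1, and limma called 0 of the 33.

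Basophil and eosinophil genes were mostly dim. Of the basophil genes, 1 of 3 was measured, Mcpt8, which differed by -0.01 ± 0.22 (SE). It was well above background on 4 FGFR1 KO arrays and 0 WT arrays. Mcpt8 thus passed the filter only through the FGFR1 KO arrays, and nothing is read from its difference. Of the eosinophil genes, 3 of 7 were measured, with 2 below 0 and a median of -0.08, and the granule genes Prg2 and Epx did not pass the filter on dim probes. Fibroblast genes had 9 of 9 below 0, and the list's median was -2.10 to -0.72 on the FGFR1 KO arrays and -1.07 to 0.14 on the WT arrays. Macrophage genes had 5 of 5 below 0, at -0.09 to 0.24 on the FGFR1 KO arrays and -0.03 to 0.95 on the WT arrays. Limma called 0 genes of either list, with 9 of 9 fibroblast and 3 of 5 macrophage genes lower at an unadjusted p under 0.05, a level that 4.85% of all probes tested reached in that direction. The medians of the groups overlapped for both lists. Over genes, the median difference was -1.65 for fibroblasts and -0.72 for macrophages, and 47.5% of all probes tested were below 0. All FGFR1 KO values lay below all WT values for 5 of 9 fibroblast and 2 of 5 macrophage genes, beside 2.71% of probes tested. Inside the bright area lay 0 of the fibroblast probes and 1 of the macrophage probes.

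WT 1, the highest array for Mcpt4, Cma1 and Tpsb2, also had the highest B cell median (2.51, against -0.91 to -0.46 on the other 7 arrays) and an adipocyte median of 2.13. WT 2, the highest for Hdc, had the highest adipocyte and skeletal muscle medians (3.47 and 8.30), against -0.15 to 0.42 for muscle on the FGFR1 KO arrays. Below 0 were 4 of 4 B cell genes, 8 of 8 adipocyte genes and 6 of 7 skeletal muscle genes, beside 47.5% of all probes tested. Of the probes of these lists, 1, 2 and 5 lay inside the bright area. Limma called 0 of each list, with 1, 3 and 0 lower at an unadjusted p under 0.05. The part of these other cell types in the mast cell values was not tested. Without WT 1 and WT 2, the differences were -1.54 for Mcpt4, -0.94 for Cma1 and -1.13 for Hdc.

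As a description of likeness, each named gene was correlated over the 8 arrays with the mean standardized profile of the 6 measured member genes, using probes outside the bright area where there was one. That profile was lowest on FGFR1 KO 4 (-0.81) and highest on WT 1 (0.76), then WT 3 (0.40), with the other 5 arrays from -0.14 to 0.11. The 8 closest genes were Sdc3, a syndecan (r = 0.991), Irgm2, an interferon-induced GTPase (0.975), B2m, the MHC class I light chain (0.968), Pik3r5, a PI3K regulatory subunit (0.954), Slc2a6, a hexose transporter (0.954), the olfactory receptor gene Olfr1446 (0.952), Thy1, a fibroblast and T cell surface protein (0.951), and Mmp11, a stromal matrix metalloproteinase (0.951). All 8 arrays share the reference RNA and the genotype split, and no p is given. With each genotype's mean removed, the 8 correlations were 0.915 to 0.987. These genes were picked as the highest of all named genes tested on the same 8 arrays. High values follow from that picking, also with the means removed, and nothing is read from their size. The profile averages members with differences of both signs, Mcpt1 among them, and WT 4 (-0.14) lay below FGFR1 KO 1 (-0.11). The probes of B2m, Slc2a6 and Olfr1446 lay inside the bright area.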

How the data were processed

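Feature Extraction 11.0.1.1 (Agilent) quantified the 8 arrays, per the file headers. The deposited median signals are uncorrected linear intensities of each spot. Processed signals, per the file headers, are intensities already corrected and dye-normalized on each array, and the deposited LogRatio is the log10 of red over green. The values of the deposited series matrix behave as log2 red over green, with correlations of 0.985 to 0.991 to the ratios computed here. Its array medians lie between -0.0155 and 0.0152, and its normalization and centring are not given in the sources used here.

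The label field names cy3, whereas the labelling protocol puts tumour RNA in red and human reference RNA in green. Green varied less within genotypes over 22367 spots, with a median SD of 0.156 (FGFR1 KO) and 0.175 (WT), than red, with 0.272 and 0.360. Red was therefore taken as the tumour channel.

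R 4.3.3 and limma 3.58.1 were used. Normexp (offset 50, which draws ratios of dim spots toward 0) was applied to the median signals, then loess on each array, without control spots and outlier spots. Of 55681 probes, 39883 passed Agilent's background criterion in red on 4 or more arrays, and 39795 of these, those with 3 or more values in each genotype, entered lmFit and eBayes, two-sided, with Benjamini-Hochberg adjustment and a threshold of 0.05. The fit was tested on simulated data. P-values measure only the spread between these samples, which may be technical, and precision is limited by having 8 arrays. Genes were named by RefSeq accession in a table of assembly GRCm38.p6 (28331 probes), and a gene stood by its probe of highest mean red signal.

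The members, lists and rules were chosen with earlier results of these data known. Named genes were all members, up to 3 genes of smallest p of each of the lists on mast cell biology, Kit, Gata2, Mitf, Srgn and Kitl, and the 8 genes of highest correlation with the members. The bright area's limits came from an earlier look at these arrays. Of the other lists of cell type markers, those for neutrophils, T cells, keratinocytes, luminal epithelium and endothelium had 5 of 6, 3 of 5, 0 of 2, 0 of 5 and 5 of 5 measured genes below 0. The share over all probes tested was 47.5%. Alternatives are given in the closing section.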

Additional observations from a re-analysis of the deposited data

Results flagged for a closer look

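Of 20 groups of 4 values, 1 had a value far from the others. Cma1 read 1.82 on WT 1 against 0.65 to 0.84 on the other WT arrays, a gap of 0.841 of the group's range, and about 1 in 20 such groups is flagged when nothing differs. Without WT 1, the Cma1 difference was -0.91.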

How the results depend on the processing

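Of the 39795 probes tested, 4 were called. The count was 0 from the log ratio Agilent deposits, from the processed red channel by itself, over probes above background on all 8 arrays, with the bright area left out, with trend and robust eBayes, without WT 1 and WT 2, and with a local background from neighbouring spots. It was 139 with no filter on dim probes and 11 with array weights, and 0 to 1 with 1 array left out. With a replicate block the count was 0. Same-numbered arrays correlated at -0.106 to 0.109 in their deviations from the group means, and 2 of 4 correlated best with their own number. These 4 values are too few to decide whether the numbers pair the samples. The count of other mast cell genes called was 0 in all 20 alternatives run. The median over the 6 member genes, -0.65, was -0.05 with the bright area left out, which removed Mcpt4 and Hdc, and -0.27 with neighbours subtracted, and -0.74 to -0.44 with 1 array left out. The Tpsb2 difference of -0.12 turned to 0.12 with Agilent's log ratio, 0.46 with red signal alone, 0.02 without WT 1 and 0.03 with neighbours subtracted (-0.26 to 0.02 with 1 array left out), and that of Mcpt1, 0.27, to -0.03 without WT 1 and WT 2, and apart from these constructions the cause was not tested. The differences stayed below 0 in all alternatives that gave a value for Mcpt4 (-2.59 to -1.51), Cma1 (-1.69 to -0.91) and Hdc (-2.05 to -0.57), and above 0 for Mcpt2 (0.26 to 0.43). The local background and the subtraction of neighbours were chosen after seeing the data. Signal over background limits the ratios of Cpa3, Ms4a2 and Fcer1a.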
